A study of Mus musculus with 16 samples.

Results

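Transcript levels of 50 cell cycle genes were described in medullary thymic epithelial cells (mTEC), the cells of the thymus that display tissue antigens to developing T cells. The genes were the rows of the count table whose Ensembl identifier carries one of 50 chosen mouse symbols, out of 89407 rows in all, and every symbol matched 1 row. They were taken in 4 classes, with 17 genes of DNA replication and its control (S), 23 genes of G2 and mitosis (G2/M), 6 G1 cyclins and kinases, and 4 inhibitors of cyclin-dependent kinases. Mature (MHC class II high) and immature (MHC class II low) mTEC had been sorted, 10000 cells per library, from 8 mice aged 4 to 6 weeks, so that each mouse gave 2 of the 16 libraries. The labels name the strain as C57BL/6, whereas the study's methods place both lines on a mixed background of 129S2/Sv and C57BL/6J. In the Rbfox1 line, 2 mice were Rbfox1 lox/lox with a Foxn1-Cre allele (Rbfox1 tKO) and 2 were Rbfox1 lox/lox with both Foxn1 alleles wild type (control). The Rbfox2 line held 2 Rbfox2 tKO and 2 control mice of the same kind with the Rbfox2 lox/lox alleles. All mice thus carried floxed alleles, Cre was driven by the Foxn1 locus of thymic epithelium, and the presence of Cre and the loss of the RBFOX gene cannot be told apart. Replicates were separate mice, 2 per condition, and each pair held 1 male and 1 female.

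Cells that divide first copy their DNA in S phase and then assemble a spindle and separate the chromosomes in mitosis. Transcripts for replication rise under the E2F factors as cells leave G1. Those for mitosis rise later under the MYB and FOXM1 complexes, so that each class tends to move as a block. D-type cyclins with Cdk4 and Cdk6 carry the growth signal that starts this sequence, and the p21, p27, p16 and p15 inhibitors hold it back. In the medulla, cycling cells are found among the precursors of the Aire-expressing stage, while the late stages are held to be largely postmitotic.

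Per library, 1506134 to 2430287 reads were counted on genes in immature mTEC and 3737884 to 4636367 in mature mTEC, so low genes were measured less precisely in the immature cells. Within immature mTEC the totals were 1908725 to 2430287 in the Rbfox1 line and 1506134 to 1973826 in the Rbfox2 line. Of the targeted genes, Rbfox2 had 35 and 70 counts in mature Rbfox2 tKO mTEC against 247 and 231 in their controls. Rbfox1 had 156 and 126 counts in mature Rbfox1 tKO mTEC against 247 and 225 in their controls. By edgeR's quasi-likelihood test, the log2 fold changes were -2.14 for Rbfox2 (adjusted p = 1.31e-06) and -0.66 for Rbfox1 (adjusted p = 0.242). The fall of Rbfox1 in mature mTEC was therefore not established by the test. In immature mTEC, Rbfox1 was at a log2 fold change of -0.09 in the Rbfox1 tKO mice (adjusted p = 0.947, edgeR's quasi-likelihood test), so the knockout was not visible in its target there, although a count over the whole gene need not show the loss of an exon. Summed epithelial markers (Epcam, Foxn1, Krt5, Krt14 and Krt8) lay at 7437 to 9897 CPM (TMM-normalized counts scaled to library size) in immature and 3141 to 3833 CPM in mature mTEC, and the mature mTEC markers at 2765 to 3271 and 6679 to 7206 CPM. Thymocyte markers summed to 12.9 to 51.3 CPM in immature and 70.2 to 83.2 CPM in mature mTEC, and those of B cells, dendritic cells and macrophages to 10.2 to 18.9 and 227 to 314 CPM. The library of replicate 3 of immature Rbfox1 control mTEC stood apart from the other immature libraries, with 51.3 CPM of thymocyte markers against at most 22.9 CPM. Whether these transcripts came from other cells or from mTEC, for which the study describes promiscuous gene expression, was not tested. Their part in the differences between populations was not tested either. In these bulk libraries, fewer cycling cells and less transcript per cycling cell cannot be told apart.

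The classes did not move together across the 16 libraries, as the plot of summed levels shows. Summed over the 23 G2/M genes, immature mTEC of the Rbfox1 line held 1300 to 1992 CPM and those of the Rbfox2 line 506 to 811 CPM, while all mature libraries lay at 1315 to 1822 CPM. The 17 S genes summed to 1065 to 1551 CPM in immature mTEC of the Rbfox1 line, 783 to 927 CPM in those of the Rbfox2 line and 686 to 865 CPM in mature mTEC. The S sum was therefore 0.779 to 0.819 of the G2/M sum in immature mTEC of the Rbfox1 line, 1.14 to 1.55 of it in immature mTEC of the Rbfox2 line and 0.440 to 0.581 of it in mature mTEC, with no overlap between these 3 ranges. Within mature mTEC the lines did not overlap either, at 0.440 to 0.486 in the Rbfox1 and 0.541 to 0.581 in the Rbfox2 line. The 4 inhibitors summed to 195 to 225 and 332 to 380 CPM in immature and mature mTEC of the Rbfox1 line, and were lowest at 168 and 385 CPM in those of the Rbfox2 line, with every mature above every immature library. The sums are given as a description and were not tested.

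**Figure D1:**
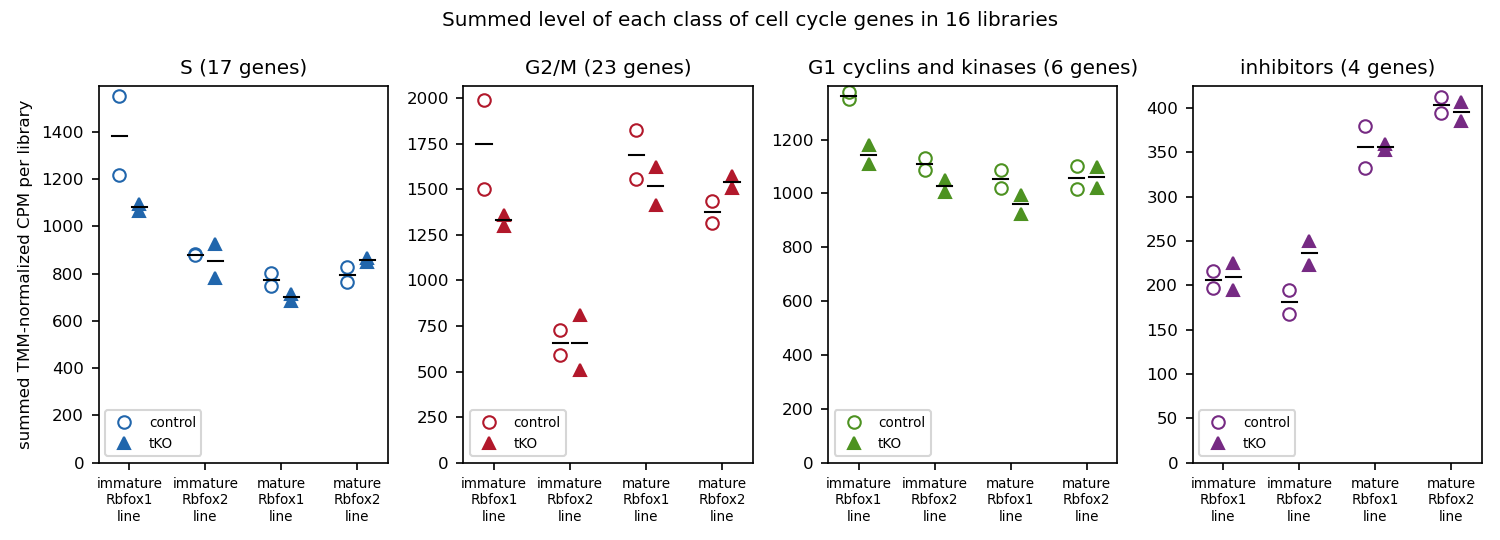
Summed TMM-normalized CPM (vertical axis, from 0) of the genes of each class in each of the 16 libraries, by population and line; open circles are control mice, filled triangles tKO mice, and short lines the mean of 2 mice. G2/M sums of immature mTEC were 506 to 811 CPM in the Rbfox2 line and 1300 to 1992 CPM in the Rbfox1 line.

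The promoters of the members were set beside these values because genes of one class share short motifs. RefSeq promoters of GRCm38.p6, from 250 bases before to 50 bases after the start of a gene, matched 40 of the 50 members, some with more than 1 start (19 promoters of 18 G2/M genes and 15 of 14 S genes). On either strand, the CHR element (TTTGAA or TTCGAA) was found in 14 of 19 G2/M promoters and 3 of 15 S promoters, against 19.2% of all 32851 promoters. The E2F motif (TTNNCGC, each N being C or G) was found in 9 of 15 S promoters and 3 of 19 G2/M promoters, against 9.57% of all promoters. The CCAAT box (CCAAT) was found in 17 of 19 G2/M and 11 of 15 S promoters, against 37.4%. None of the 5 promoters of G1 genes held a CHR element, and 1 of 6 promoters of inhibitors did. A match is a match of letters only, and E2F motifs can overlap when they lie on opposite strands. The bases from 110 to 10 before the start are shown for 3 G2/M genes whose CHR element lies downstream of a CCAAT box and for 2 S genes with an E2F motif, with the matches to the 3 motifs in capitals.
Cdc20 (chr4:118437353-118437453, minus strand): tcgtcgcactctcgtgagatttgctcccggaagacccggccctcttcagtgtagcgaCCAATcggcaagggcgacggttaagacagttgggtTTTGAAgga
Kif11 (chr19:37376272-37376372, plus strand): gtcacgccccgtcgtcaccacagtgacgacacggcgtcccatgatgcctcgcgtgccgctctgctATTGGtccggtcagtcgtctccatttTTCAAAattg
Top2a (chr11:99024199-99024299, minus strand): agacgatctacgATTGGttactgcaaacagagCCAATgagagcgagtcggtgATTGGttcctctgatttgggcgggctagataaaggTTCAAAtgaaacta
Mcm6 (chr1:128359715-128359815, minus strand): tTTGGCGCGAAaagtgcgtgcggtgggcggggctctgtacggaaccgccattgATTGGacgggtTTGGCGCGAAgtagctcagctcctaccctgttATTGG
Rrm1 (chr7:102441585-102441685, plus strand): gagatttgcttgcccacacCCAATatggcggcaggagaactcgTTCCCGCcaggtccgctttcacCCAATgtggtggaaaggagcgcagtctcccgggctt
In Cdc20, Kif11 and Top2a the CHR element began 18, 19 and 23 bases before the start (TTCAAA in the latter pair, its reverse complement). In Mcm6 overlapping E2F motifs on opposite strands began 46 and 43 bases before the start, and again at 109 and 106, and in Rrm1 a single E2F motif began 67 bases before it.

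Counts were compared with edgeR's quasi-likelihood test over all genes of the table, and a gene passed at an adjusted p (Benjamini-Hochberg over all genes tested) under 0.05. Log2 fold changes are given with their standard error. In the control mice, 24 of the 49 members tested were higher and 14 lower in mature than in immature mTEC, averaged over both lines, where 38.4% of all 16750 genes tested were higher and 30.4% lower. In the tKO mice, which share no library with the controls, 28 were higher and 11 lower, where 38.5% and 29.3% of 16578 genes were. The classes differed in direction. No member differed between genotypes in this population difference (0 at adjusted p, 8 of 49 at an unadjusted p under 0.05, where 5.2% of 17442 genes were; DESeq2 gave 0 as well). Between the lines, 38 members were lower and 1 higher in immature mTEC of the Rbfox2 line than of the Rbfox1 line (4 against 4 mice, both genotypes), where 12.3% of 13060 genes were lower and 11.1% higher. In mature mTEC, 7 members were higher and 4 lower in the Rbfox2 line, where 6.6% and 6.63% of 18021 genes were. Changes over 2-fold were seen in 6 members that were higher and 1 lower between the populations in controls, where 26.8% and 11.1% of all genes were, and in 7 and 1 in tKO mice, where 26.3% and 11.9% were. Ccnb2, a mitotic B-type cyclin, had 0 to 2 counts in every library and was not tested. A pseudogene of Ccnb2 is annotated, and whether these counts reflect the transcript level or the assignment of reads was not tested.

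**Figure D2:**
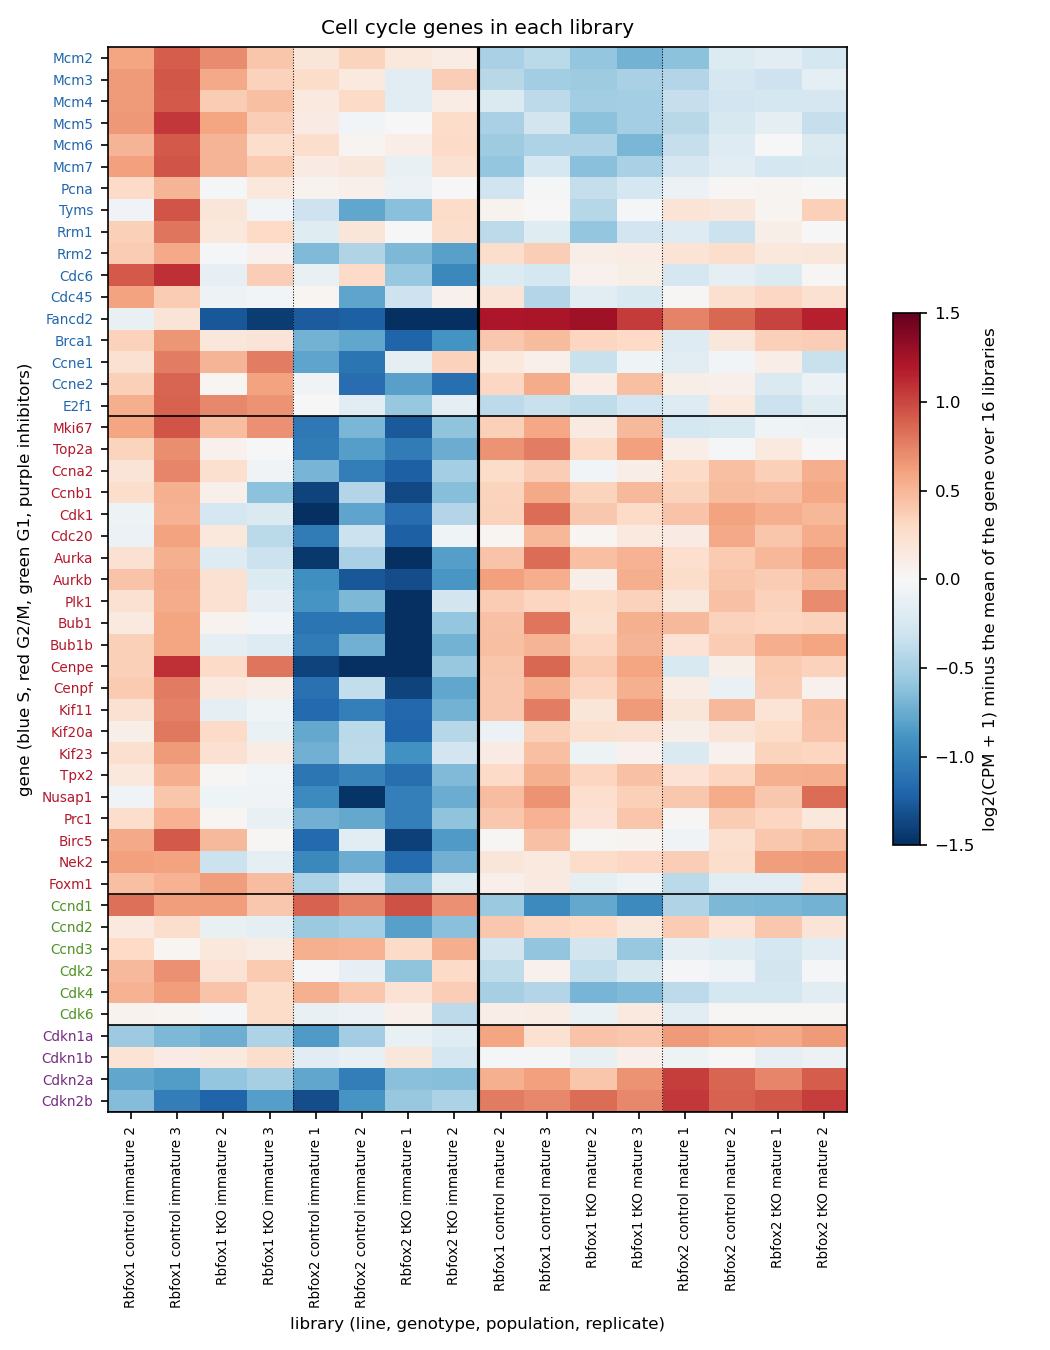
Level of each of the 49 tested members (rows, by class) in each library (columns): log2(CPM + 1) minus the mean of the gene over the 16 libraries, red above and blue below it. Most G2/M rows are bluest in the 4 immature libraries of the Rbfox2 line, and most S rows are reddest in the 4 immature libraries of the Rbfox1 line.

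The S genes were more often lower than higher in mature mTEC. In the control mice 10 of 17 were lower and 3 higher, with a median log2 fold change of -0.56 (0.05 over all genes), and in the tKO mice 8 were lower and 3 higher, with a median of -0.37 (0.07 over all genes). Without the immature library of Rbfox2 control replicate 1, the count that was higher in the controls fell from 3 to 1. The genes of the replicative helicase, Mcm2 to Mcm7, were all among those lower, with values of -0.95 to -0.79 in the controls and -0.79 to -0.59 in the tKO mice. Below, values are listed with the 2 control mice before the 2 tKO mice of each line.

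Mcm2 is a subunit of the helicase that unwinds DNA at the fork. In immature mTEC, Mcm2 stood at 83.1, 104, 90.3 and 73.9 CPM in the Rbfox1 line and at 62.6, 69.8, 61.6 and 59.6 CPM in the Rbfox2 line. In mature mTEC, Mcm2 stood at 38.9, 41.2, 36.5 and 33.2 CPM in the Rbfox1 line and at 35.5, 47.7, 48.9 and 45.8 CPM in the Rbfox2 line. Every immature library was above every mature library, and within immature mTEC the Rbfox1 line was above the Rbfox2 line. For Mcm3, the values lay at 108, 132, 102 and 87.8 CPM in immature mTEC of the Rbfox1 line and 83.8, 76.4, 60.9 and 89.5 CPM in those of the Rbfox2 line. In mature mTEC they were 51.3, 47.9, 47.5 and 48.8 CPM and 50.8, 57.8, 55.5 and 62.2 CPM in the same order. The immature ranges of the lines overlapped for Mcm3 by 1 library of the Rbfox2 line. In immature mTEC, Mcm4 stood at 115, 139, 96.4 and 101 CPM in the Rbfox1 line and at 81.7, 90.3, 65.8 and 79.8 CPM in the Rbfox2 line. In mature mTEC, Mcm4 stood at 63.0, 55.9, 51.0 and 51.2 CPM in the Rbfox1 line and at 57.6, 60.3, 60.9 and 61.7 CPM in the Rbfox2 line. Mcm4, part of the core that acts as the motor, had no overlap between lines in immature mTEC.

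In immature mTEC, Mcm5 stood at 113, 151, 109 and 93.5 CPM in the Rbfox1 line and at 78.4, 69.8, 72.1 and 87.4 CPM in the Rbfox2 line. In mature mTEC, Mcm5 stood at 51.1, 59.1, 46.6 and 50.5 CPM in the Rbfox1 line and at 53.8, 61.0, 65.6 and 56.4 CPM in the Rbfox2 line. Mcm5 fell by 1.17 on the log2 scale from immature to mature mTEC in the Rbfox1 line and by 0.38 in the Rbfox2 line. In immature mTEC, Mcm6 stood at 149, 198, 149 and 126 CPM in the Rbfox1 line and at 126, 107, 112 and 128 CPM in the Rbfox2 line. In mature mTEC, Mcm6 stood at 71.9, 75.3, 75.3 and 64.4 CPM in the Rbfox1 line and at 81.8, 91.2, 104 and 89.4 CPM in the Rbfox2 line. Mcm6 was one of the members that differed between lines in both populations, lower in immature (-0.39, standard error 0.106, adjusted p = 0.0140) and higher in mature mTEC of the Rbfox2 line (0.35, standard error 0.0812, adjusted p = 0.00709). In immature mTEC, Mcm7 stood at 127, 160.0, 118 and 109 CPM in the Rbfox1 line and at 90.4, 92.7, 76.3 and 97.1 CPM in the Rbfox2 line. In mature mTEC, Mcm7 stood at 54.9, 68.8, 52.9 and 58.5 CPM in the Rbfox1 line and at 69.3, 73.1, 68.8 and 70.0 CPM in the Rbfox2 line. Mcm7 showed the same pair of differences, at -0.52 (standard error 0.104) in immature and 0.27 (standard error 0.0858) in mature mTEC, the latter with an adjusted p of 0.0466. The lines therefore lay in opposite order in the 2 populations for both genes.

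Rrm1 and Rrm2 encode the large and small subunits of ribonucleotide reductase, which makes the nucleotides for DNA. In immature mTEC, Rrm1 stood at 128, 176, 111 and 123 CPM in the Rbfox1 line and at 88.2, 113, 99.4 and 120.0 CPM in the Rbfox2 line. In mature mTEC, Rrm1 stood at 75.7, 87.8, 66.3 and 82.0 CPM in the Rbfox1 line and at 87.4, 79.8, 106 and 100.1 CPM in the Rbfox2 line. Rrm1 was lower in mature mTEC of the controls (-0.58, standard error 0.105, adjusted p = 7.72e-05). In immature mTEC, Rrm2 stood at 66.3, 75.5, 49.8 and 52.9 CPM in the Rbfox1 line and at 31.6, 36.7, 31.5 and 28.4 CPM in the Rbfox2 line. In mature mTEC, Rrm2 stood at 60.9, 65.8, 54.3 and 54.7 CPM in the Rbfox1 line and at 58.5, 61.0, 56.8 and 57.3 CPM in the Rbfox2 line. Unlike Rrm1, Rrm2 was higher in mature mTEC when averaged over the lines (0.32, standard error 0.0996, adjusted p = 0.00780 in controls). The rise lay in the Rbfox2 line, with means of 32.1 CPM in immature and 58.4 CPM in mature mTEC, against 61.1 and 58.9 CPM in the Rbfox1 line. The 4 immature libraries of the Rbfox2 line lay below all other libraries for Rrm2. Pcna, the sliding clamp of the polymerases, fell by 0.32 on the log2 scale in the controls (standard error 0.0823, adjusted p = 0.00181) and did not pass in the tKO mice (-0.14, standard error 0.0800, adjusted p = 0.119).

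Fancd2 and Brca1, which act in the repair of cross-links and breaks at forks, moved against the helicase genes when averaged over the lines. Fancd2 (ENSMUSG00000034023, chr6:113531682-113597017 of GRCm38) was the S gene with the largest change. In immature mTEC, Fancd2 stood at 16.8, 20.9, 6.98 and 6.16 CPM in the Rbfox1 line and at 7.08, 7.22, 4.20 and 5.55 CPM in the Rbfox2 line. In mature mTEC, Fancd2 stood at 43.6, 44.0, 45.3 and 38.8 CPM in the Rbfox1 line and at 31.3, 34.1, 38.0 and 42.1 CPM in the Rbfox2 line. All mature libraries were above all immature ones, with log2 fold changes of 1.70 (standard error 0.153, adjusted p = 1.17e-08) in the control and 2.86 (standard error 0.188, adjusted p = 6.3e-12) in the tKO mice, or 3.24-fold and 7.26-fold. These fold changes rest on low counts of Fancd2 in immature mTEC, at 39, 51, 15 and 12 in the Rbfox1 line and 13, 12, 6 and 8 in the Rbfox2 line. The gene shares 257 exon bases with Fancd2os on the opposite strand, which had at most 4 counts in any library. In immature mTEC, Brca1 stood at 32.7, 41.0, 28.9 and 29.3 CPM in the Rbfox1 line and at 15.2, 14.4, 10.5 and 13.2 CPM in the Rbfox2 line. In mature mTEC, Brca1 stood at 34.0, 35.8, 31.9 and 31.5 CPM in the Rbfox1 line and at 22.1, 28.7, 32.8 and 33.3 CPM in the Rbfox2 line. Brca1 was at 0.34 (standard error 0.147, adjusted p = 0.0464) in the controls and 0.81 (standard error 0.149, adjusted p = 4.97e-05) in the tKO mice. Mean Brca1 was 33.0 CPM in immature and 33.3 CPM in mature mTEC of the Rbfox1 line, against 13.3 and 29.2 CPM in the Rbfox2 line. Its immature libraries of the Rbfox2 line stood below all other libraries.

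Of the other S genes, Cdc6, which loads the helicase onto origins, fell by 0.84 on the log2 scale in the controls (standard error 0.223, adjusted p = 0.00255) on 13 to 43 counts per control library. In the tKO mice Cdc6 was at 0.37 (standard error 0.282, adjusted p = 0.249). E2f1, the transcription factor that switches on many genes of this class, fell by 0.56 in the controls (standard error 0.204, adjusted p = 0.0212) and was at -0.49 (standard error 0.224, adjusted p = 0.0557) in the tKO mice. Ccne1, the first of the E-type cyclins that drive entry into S phase, passed as lower in the tKO mice alone (-0.57, standard error 0.226, adjusted p = 0.0306, against 0.25, standard error 0.234 in the controls). Tyms, Cdc45 and Ccne2 did not pass in either genotype, with log2 fold changes of 0.03 to 0.45 in all but the control value of Cdc45 (-0.08, standard error 0.219).

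Averaged over the lines, the G2/M genes went the other way. In the control mice 17 of the 22 tested were higher in mature mTEC and 0 lower, with a median log2 fold change of 0.56, and in the tKO mice 21 were higher and 0 lower, with a median of 0.85. DESeq2 gave 16 and 20 higher and 0 lower. At an unadjusted p under 0.05, 17 and 21 of the 22 passed, where 71.1% and 70.1% of all genes did. Foxm1, the transcription factor of the mitotic program, was the gene that did not pass in either genotype (-0.16, standard error 0.133 in controls and -0.10, standard error 0.151 in tKO mice). In the controls, Mki67, Birc5, Kif20a and Kif23 did not pass either (0.10 to 0.20). The lines differed in this rise. The log2 ratio of the G2/M sums, mature over immature, averaged -0.04 in controls and 0.19 in tKO mice of the Rbfox1 line. In the Rbfox2 line it averaged 1.07 and 1.26. Leaving out the immature library of Rbfox1 control replicate 3, which stood apart above, gave 19 higher and 0 lower in the controls.

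Mki67 encodes the antigen used to mark cycling cells. In immature mTEC, Mki67 stood at 278, 355, 254 and 297 CPM in the Rbfox1 line and at 87.1, 114, 76.3 and 121 CPM in the Rbfox2 line. In mature mTEC, Mki67 stood at 235, 274, 202 and 257 CPM in the Rbfox1 line and at 153, 156, 175 and 175 CPM in the Rbfox2 line. In both populations the 4 libraries of the Rbfox2 line lay below the 4 of the Rbfox1 line. Top2a, the topoisomerase that untangles sister chromatids, followed the same order. In immature mTEC, Top2a stood at 173, 223, 144 and 137 CPM in the Rbfox1 line and at 65.9, 77.0, 65.8 and 81.8 CPM in the Rbfox2 line. In mature mTEC, Top2a stood at 219, 233, 168 and 210.4 CPM in the Rbfox1 line and at 147, 134, 152 and 138 CPM in the Rbfox2 line. Between lines, Mki67 was at -1.57 on the log2 scale in immature and -0.55 in mature mTEC (adjusted p = 3.14e-07 and 0.000121), and Top2a at -1.20 and -0.53 (adjusted p = 1.04e-06 and 0.000139). Cenpe, a kinesin that aligns chromosomes, and Cenpf, a kinetochore protein, were also lower in both populations (Cenpf at -1.27, standard error 0.170 in immature and -0.34, standard error 0.0922 in mature mTEC, Cenpe at -0.43, standard error 0.105 in mature mTEC). Cenpe (ENSMUSG00000045328, chr3:135212537-135273611) had the largest line difference of all members in immature mTEC, 3.99-fold lower in the Rbfox2 line (standard error 0.235 on the log2 scale).

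Cdk1 and its cyclins Ccna2 and Ccnb1 form the kinases that bring cells into mitosis. In immature mTEC, Cdk1 stood at 51.2, 77.5, 44.7 and 46.2 CPM in the Rbfox1 line and at 18.0, 30.7, 23.8 and 39.5 CPM in the Rbfox2 line. In mature mTEC, Cdk1 stood at 68.7, 97.1, 72.0 and 65.9 CPM in the Rbfox1 line and at 72.9, 82.5, 79.2 and 76.5 CPM in the Rbfox2 line. All mature libraries were above the immature libraries of the Rbfox2 line, and they overlapped those of the Rbfox1 line. In immature mTEC, Ccna2 stood at 99.0, 144, 102 and 83.2 CPM in the Rbfox1 line and at 52.8, 41.5, 36.4 and 60.3 CPM in the Rbfox2 line. In mature mTEC, Ccna2 stood at 105, 112, 83.8 and 92.9 CPM in the Rbfox1 line and at 105, 119, 111 and 126 CPM in the Rbfox2 line. Ccna2 was higher in mature mTEC in the Rbfox2 line (1.27, standard error 0.122, adjusted p = 2.98e-08) and at -0.13 (standard error 0.103, adjusted p = 0.267) in the Rbfox1 line. In immature mTEC, Ccnb1 stood at 60.3, 72.6, 52.6 and 32.4 CPM in the Rbfox1 line and at 18.5, 36.7, 18.9 and 31.9 CPM in the Rbfox2 line. In mature mTEC, Ccnb1 stood at 63.4, 74.9, 63.2 and 70.6 CPM in the Rbfox1 line and at 63.5, 70.2, 68.8 and 75.1 CPM in the Rbfox2 line. For Ccnb1 the 2 lines met in mature mTEC, where the difference was 0.03 (standard error 0.0835), whereas in immature mTEC it was -1.02 (standard error 0.207, adjusted p = 0.00206).

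Tpx2, Kif11 and Nusap1 build and stabilise the spindle. In immature mTEC, Tpx2 stood at 95.6, 125, 86.6 and 82.7 CPM in the Rbfox1 line and at 39.7, 42.1, 38.5 and 53.4 CPM in the Rbfox2 line. In mature mTEC, Tpx2 stood at 104, 124, 107 and 116 CPM in the Rbfox1 line and at 99.2, 106, 124 and 125 CPM in the Rbfox2 line. Tpx2 was lower in every immature library of the Rbfox2 line than in any other library. In immature mTEC, Kif11 stood at 64.6, 93.5, 49.8 and 52.4 CPM in the Rbfox1 line and at 24.0, 26.5, 23.8 and 33.3 CPM in the Rbfox2 line. In mature mTEC, Kif11 stood at 73.4, 94.3, 62.8 and 86.0 CPM in the Rbfox1 line and at 62.5, 77.3, 63.4 and 75.1 CPM in the Rbfox2 line. Kif11, the kinesin that pushes the spindle poles apart, showed the same gap. In immature mTEC, Nusap1 stood at 35.3, 49.2, 34.9 and 35.4 CPM in the Rbfox1 line and at 18.5, 12.6, 17.5 and 21.5 CPM in the Rbfox2 line. In mature mTEC, Nusap1 stood at 51.1, 58.9, 43.8 and 47.1 CPM in the Rbfox1 line and at 48.9, 54.6, 48.9 and 66.3 CPM in the Rbfox2 line. Nusap1, which binds spindle microtubules, had the largest rise of the class from immature to mature mTEC in the controls (1.05, standard error 0.140, adjusted p = 2.42e-06), and it shares 172 exon bases with Oip5 on the opposite strand.

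Bub1b is a kinase-like protein of the checkpoint that holds cells before anaphase. In immature mTEC, Bub1b stood at 59.4, 69.7, 41.4 and 40.1 CPM in the Rbfox1 line and at 21.8, 27.7, 14.0 and 27.7 CPM in the Rbfox2 line. In mature mTEC, Bub1b stood at 63.4, 66.0, 57.8 and 66.3 CPM in the Rbfox1 line and at 53.8, 60.5, 67.5 and 70.3 CPM in the Rbfox2 line. Its immature libraries of the Rbfox2 line lay below all others. Nek2 is a kinase that splits the centrosomes. In immature mTEC, Nek2 stood at 52.5, 52.1, 27.0 and 30.8 CPM in the Rbfox1 line and at 16.9, 19.9, 14.7 and 20.1 CPM in the Rbfox2 line. In mature mTEC, Nek2 stood at 38.7, 37.8, 41.1 and 42.4 CPM in the Rbfox1 line and at 44.2, 40.8, 52.7 and 53.4 CPM in the Rbfox2 line. In immature mTEC of the Rbfox1 line the 2 control libraries of Nek2 lay above the 2 tKO libraries, a difference that did not pass (-0.86, standard error 0.184, adjusted p = 0.241).

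The remaining G2/M genes were the kinases Aurka, Aurkb, Plk1 and Bub1, the kinesins Kif20a and Kif23, Cdc20, which activates the anaphase-promoting complex, Prc1, which bundles the midzone, and Birc5, a subunit of the chromosomal passenger complex. From immature to mature mTEC their log2 fold changes were 0.10 to 0.91 in the control and 0.38 to 1.29 in the tKO mice. Between lines in immature mTEC they were -1.45 for Aurkb, -1.45 for Birc5 and -0.72 for Cdc20, with the others between. Kif20a shares 1271 exon bases with Cdc23, and Prc1 911 with Rccd1, on opposite strands. The libraries were stranded, but the sources used here do not give the strand setting of the counting, so these values and those of other members with an antisense neighbour are uncertain to that extent. Pseudogenes of Ccnb1, Ccnb2, Ccnd3, Pcna and Tyms are annotated, and how reads that match them were treated is not given either.

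All 22 G2/M genes tested were lower in immature mTEC of the Rbfox2 line than of the Rbfox1 line, 16 of them more than 2-fold (3.15% of all genes were that much lower and 1.91% higher), with a median log2 fold change of -1.15 (-0.00177 over all genes). For 20 of the 23, the 4 libraries of the Rbfox2 line lay below the 4 of the Rbfox1 line with no overlap. The 23 include Ccnb2, which was at 0 CPM in immature mTEC of the Rbfox1 line and so could not lie lower in the Rbfox2 line. Of the S genes, 14 of 17 were lower and 0 higher, with a median of -0.59, and 8 of 17 had no overlap. The share of all genes without overlap was not counted, so these counts of overlap have no background to be set against. DESeq2 gave 21 of the G2/M genes and 6 of the S genes as lower and 0 of both as higher. The library that stood apart had the highest S and G2/M sums of all 16, and without it 21 of 22 G2/M and 10 of 17 S genes were lower. In the control mice alone, 2 against 2, all 22 G2/M and 13 of 17 S genes were lower, where 6.05% of all genes were, and 20 and 6 of them more than 2-fold, where 2.69% of all genes were. In the tKO mice alone 14 and 3 were lower, where 4.53% of all genes were, and 6 and 2 of them more than 2-fold, where 1.69% of all genes were. In neither genotype was a member higher (0 in both, also by DESeq2), where 5.46% and 4.33% of all genes were, or 1.41% and 1.46% by more than 2-fold. These comparisons within a genotype were chosen after the line difference was seen, and DESeq2 gave 17 and 4 lower in the controls and 6 and 0 in the tKO mice. They also rested on few libraries. In the controls the G2/M count fell to 14 without the immature library of Rbfox2 control replicate 1, and the S count to 3, 5 and 6 without those of Rbfox1 control replicate 3, Rbfox2 control replicate 1 and Rbfox2 control replicate 2. In the tKO mice the G2/M count fell to 2, 5 and 7 without those of Rbfox2 tKO replicate 1, Rbfox1 tKO replicate 2 and Rbfox1 tKO replicate 3, and the S count to 0, 1 and 1 without those of Rbfox2 tKO replicate 1, Rbfox1 tKO replicate 3 and Rbfox2 tKO replicate 2.

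**Figure D3:**
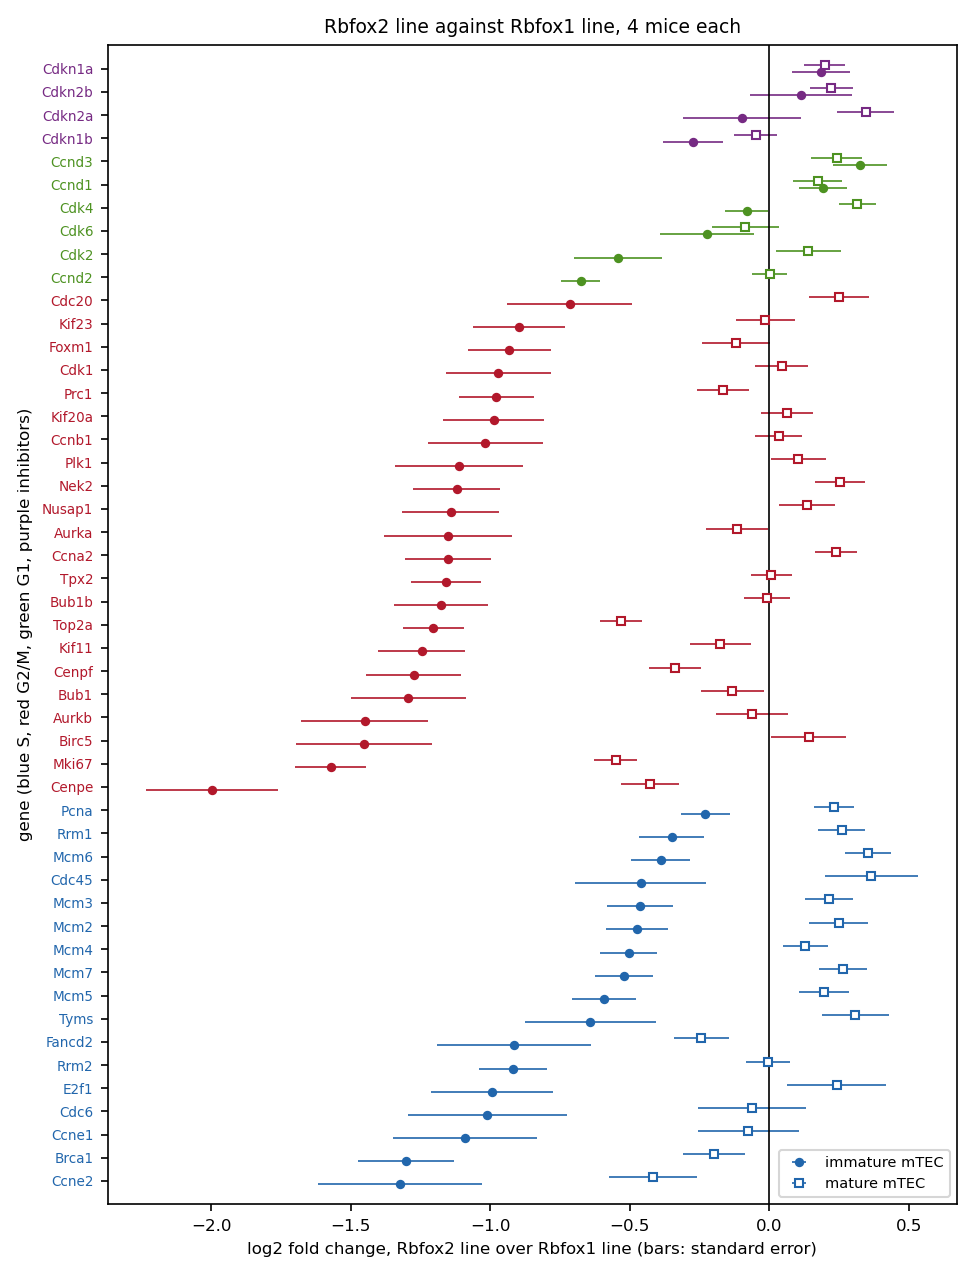
Log2 fold change of the Rbfox2 line over the Rbfox1 line (horizontal axis, bars are standard errors, 4 against 4 mice) for each tested member, in immature (filled) and mature mTEC (open). All 22 G2/M genes lie left of 0 in immature mTEC, the rightmost being Cdc20 at -0.72.

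Other markers moved with line in the same immature libraries. Aire, the regulator of tissue antigens in mature mTEC, had 499, 730, 560 and 414 counts in immature mTEC of the Rbfox1 line and 76, 60, 28 and 78 in those of the Rbfox2 line, and was at -2.71 (standard error 0.179, adjusted p = 4.74e-08) on the log2 scale. Of the other mature mTEC markers, Cd80 (-1.72, standard error 0.231, adjusted p = 6.5e-05), Cd40 (-0.59, standard error 0.107, adjusted p = 0.000901) and Fezf2 (-0.52, standard error 0.0764, adjusted p = 0.000156) were also lower, H2-Aa was higher (0.19, standard error 0.0655, adjusted p = 0.0420), and Cd86 had 0 to 4 counts and was not tested. All 6 summed to 2765 to 3253 CPM in immature mTEC of the Rbfox1 and 2779 to 3271 CPM in those of the Rbfox2 line. In mature mTEC Aire was 1.99-fold lower in the Rbfox2 line (adjusted p = 2.64e-07, edgeR), Cd80 was lower (-0.25, standard error 0.0612, adjusted p = 0.0107), H2-Aa higher (0.25, standard error 0.0439, adjusted p = 0.00103), 3 of the 6 did not pass, and the sums of the 6 were 6679 to 7165 CPM in the Rbfox1 and 6746 to 7206 CPM in the Rbfox2 line. Fibroblast markers (Pdgfra, Pdgfrb, Col1a1 and Dcn) summed to 203 to 355 CPM in immature mTEC of the Rbfox1 line and 861 to 1233 CPM in those of the Rbfox2 line, and endothelial markers (Pecam1, Cdh5 and Kdr) to 19.4 to 51.7 and 58.4 to 184 CPM. Thymocyte markers summed to 12.9 to 51.3 and 19.6 to 22.9 CPM. The epithelial lists were higher in immature mTEC of the Rbfox2 line, with no overlap. Markers of immature mTEC (Ccl21a, Pdpn, Ly6a and Itgb4) summed to 1086 to 1327 CPM in the Rbfox1 and 1401 to 1503 CPM in the Rbfox2 line. The epithelial markers named above summed to 7437 to 8305 and 9420 to 9897 CPM, and cortical markers (Psmb11, Prss16, Ly75 and Ackr4) to 160 to 193 and 206 to 249 CPM. The source of these marker transcripts and their part in the line difference were not tested. Line and anything else that differed between the mice of the lines, their genetic background included, cannot be told apart.

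In mature mTEC, 4 G2/M genes were lower in the Rbfox2 line, namely Mki67, Top2a, Cenpe and Cenpf, and 1 was higher, Ccna2 (0.24, standard error 0.0756, adjusted p = 0.0410). The S genes higher there were Mcm6, Mcm7, Pcna and Rrm1, at 0.23 to 0.35. Cdk4 (0.32, standard error 0.0663) and Cdkn2a (0.35, standard error 0.104) completed the 7 that were higher. No member differed over 2-fold in mature mTEC, where 0.25% of all genes were higher and 0.794% lower by that much. The count of 7 rested on single mature libraries and fell to 1 without Rbfox2 control replicate 2, to 2 without Rbfox2 control replicate 1, Rbfox1 tKO replicate 2 or Rbfox2 tKO replicate 2, to 3 without Rbfox1 tKO replicate 3 and to 4 without Rbfox2 tKO replicate 1. The count of 4 fell to 2 without Rbfox1 control replicate 3 or Rbfox1 tKO replicate 3. With library totals in place of TMM, or with DESeq2, 2 members were higher.

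After the line difference was seen, mature and immature mTEC were also compared within each line, 8 libraries each. In the Rbfox1 line 12 of 49 members were higher and 20 lower in mature mTEC, where 37.8% and 31.8% of 17022 genes were. In the Rbfox2 line 30 were higher and 9 lower, where 38.6% and 29.8% of 16149 genes were. Of the G2/M genes, 7 were higher and 3 lower in the Rbfox1 line, with a median log2 fold change of 0.13, and 21 were higher and 0 lower in the Rbfox2 line, with a median of 1.35. The 3 that were lower in the Rbfox1 line were Birc5 (-0.40, standard error 0.156), Foxm1 (-0.55, standard error 0.113) and Mki67 (-0.30, standard error 0.0934). Of the S genes, 1 was higher and 12 lower in the Rbfox1 line (median -0.72), and 5 were higher and 6 lower in the Rbfox2 line (median 0.09). The 6 that were lower in the Rbfox2 line were Mcm2 to Mcm7, at -0.51 to -0.34, against -1.24 to -1.03 in the Rbfox1 line. Changes over 2-fold were seen in 4 members higher and 9 lower in the Rbfox1 line, where 26.5% and 11% of genes were, and in 22 higher and 1 lower in the Rbfox2 line, where 26.3% and 12.7% were. Of those 22, 17 were G2/M genes, 3 inhibitors and 2 S genes. Without the immature library of Rbfox1 control replicate 2, the members that were higher in the Rbfox1 line fell from 12 to 7 and the G2/M genes among them from 7 to 2. The 3 lower G2/M genes fell to 1 without the immature library of Rbfox1 control replicate 3 or the mature one of Rbfox1 tKO replicate 2, and the 5 higher S genes of the Rbfox2 line to 3 without the immature library of Rbfox2 control replicate 2.

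The difference between these differences, also chosen then, was tested in 1 fit of all 16 libraries. In 36 of 49 members the change from immature to mature mTEC was more positive in the Rbfox2 than in the Rbfox1 line and in 0 more negative, where 2.99% and 1.77% of 17442 genes were. They were all 22 G2/M genes tested (log2 differences of 0.67 to 1.59, where 1.14% of all genes were over 1), 12 of 17 S genes, Ccnd2 and Cdk4. DESeq2 gave 31 more positive and 0 more negative. Ccna2 (1.39, standard error 0.175, adjusted p = 1.69e-05), Nek2 (1.37, standard error 0.171, adjusted p = 1.55e-05) and Tpx2 (1.16, standard error 0.146, adjusted p = 1.62e-05) had the smallest adjusted p (edgeR's quasi-likelihood test). The 4 inhibitors were at 0.01 to 0.43 and none passed (0 at an unadjusted p under 0.05, where 16.9% of all genes were, and 0 by DESeq2).

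**Figure D4:**
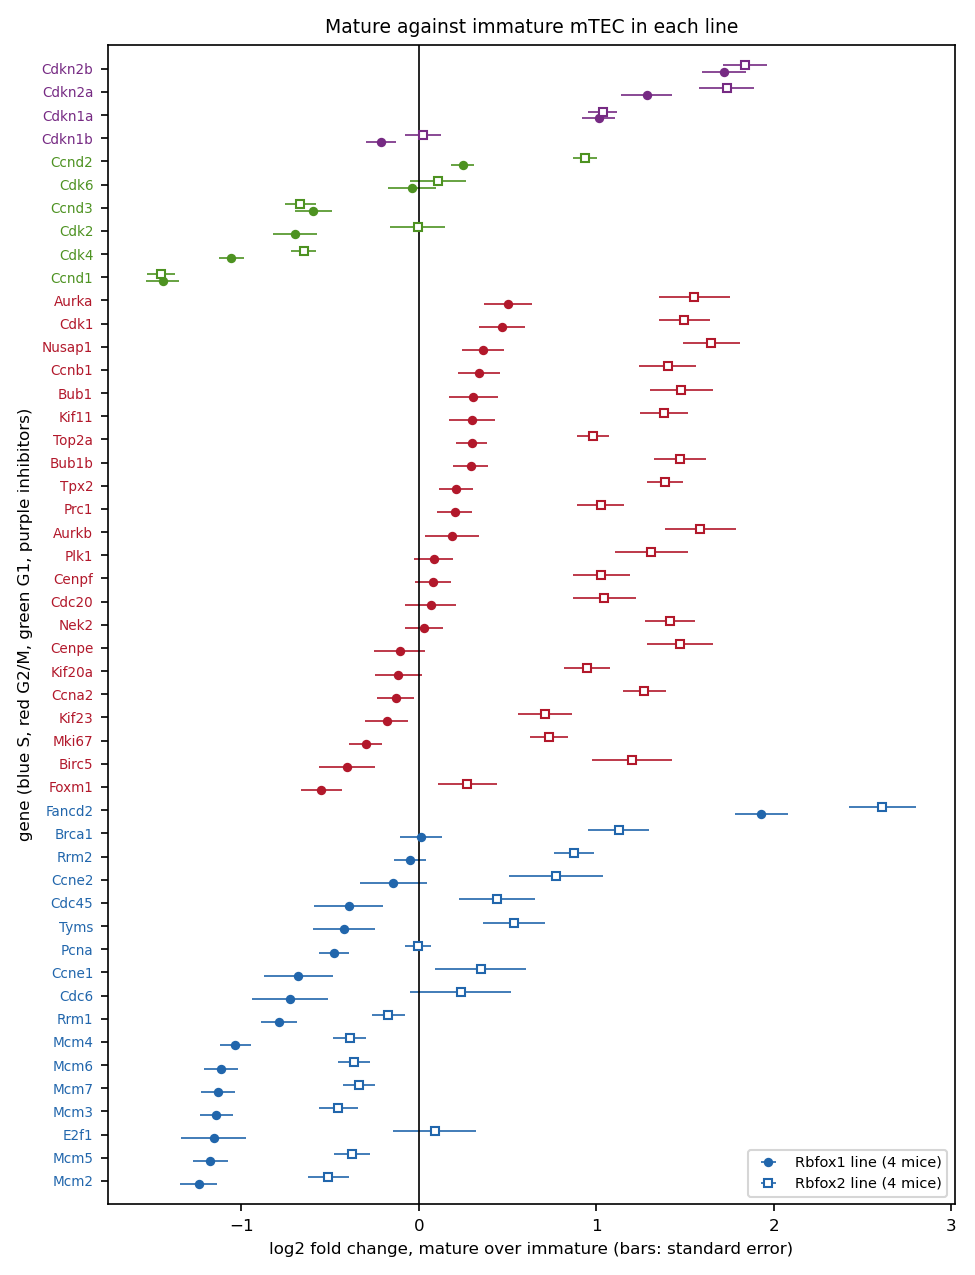
Log2 fold change of mature over immature mTEC (horizontal axis, bars are standard errors) for each tested member in the Rbfox1 line (filled) and the Rbfox2 line (open), 4 mice each. The G2/M genes lie at -0.55 to 0.50 in the Rbfox1 line and at 0.27 to 1.65 in the Rbfox2 line, and Ccnd1 and the inhibitor Cdkn2b lie at like values in both.

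Among the G1 genes the 3 D-type cyclins, which bind Cdk4 and Cdk6, did not move alike. In immature mTEC, Ccnd1 stood at 306, 267, 268 and 229 CPM in the Rbfox1 line and at 318, 291, 335 and 277 CPM in the Rbfox2 line. In mature mTEC, Ccnd1 stood at 117, 88.7, 101 and 88.8 CPM in the Rbfox1 line and at 126, 107, 107 and 105 CPM in the Rbfox2 line. Every immature library of Ccnd1 was above every mature one, and it had the smallest adjusted p of all members in the controls (-1.43, standard error 0.0891, adjusted p = 5.89e-11). In immature mTEC, Ccnd2 stood at 598, 649.8, 502 and 491 CPM in the Rbfox1 line and at 366, 379, 306 and 349 CPM in the Rbfox2 line. In mature mTEC, Ccnd2 stood at 719, 676, 664 and 608 CPM in the Rbfox1 line and at 704, 624, 716 and 617 CPM in the Rbfox2 line. Ccnd2 was higher in mature mTEC (0.50, standard error 0.0626, adjusted p = 1.12e-06 in controls), and in immature mTEC it was lower in the Rbfox2 line (-0.67, standard error 0.0699, adjusted p = 5.06e-06) with no overlap. In immature mTEC, Ccnd3 stood at 92.5, 76.3, 83.3 and 81.1 CPM in the Rbfox1 line and at 109, 108, 91.7 and 109.6 CPM in the Rbfox2 line. In mature mTEC, Ccnd3 stood at 61.5, 49.2, 61.5 and 49.98 CPM in the Rbfox1 line and at 67.5, 65.7, 62.3 and 66.6 CPM in the Rbfox2 line. Ccnd3 fell by 0.66 on the log2 scale in the controls and was the member that was higher in immature mTEC of the Rbfox2 line (0.33, standard error 0.0974, adjusted p = 0.0234), a call that was lost with library totals in place of TMM and with DESeq2. Per kilobase of exon, Ccnd1 was at 60.8 ± 7.17 CPM in immature and 22.3 ± 2.73 CPM in mature mTEC (SD, n = 8), and Ccnd2 at 48.4 ± 13.3 and 70.8 ± 4.83 CPM, over both lines.

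Cdk4 is the main partner of the D-type cyclins. In immature mTEC, Cdk4 stood at 277, 299, 259 and 234 CPM in the Rbfox1 line and at 279.8, 256, 226 and 250.4 CPM in the Rbfox2 line. In mature mTEC, Cdk4 stood at 136, 142, 119 and 122 CPM in the Rbfox1 line and at 146, 161, 161 and 173 CPM in the Rbfox2 line. Cdk4 was lower in mature mTEC in both genotypes (-0.93, standard error 0.0693, adjusted p = 8.36e-10 in controls and -0.76, standard error 0.0758, adjusted p = 8.38e-09 in tKO mice), with no overlap, and shares 641 exon bases with Tspan31 on the opposite strand. Cdk2 partners the E-type and A-type cyclins. In immature mTEC, Cdk2 stood at 52.1, 59.9, 42.8 and 48.8 CPM in the Rbfox1 line and at 36.5, 33.7, 23.8 and 45.1 CPM in the Rbfox2 line. In mature mTEC, Cdk2 stood at 28.1, 38.6, 28.2 and 31.0 CPM in the Rbfox1 line and at 36.0, 35.3, 30.3 and 36.3 CPM in the Rbfox2 line. Cdk2 fell by 0.37 in the controls (standard error 0.126, adjusted p = 0.0152) and was at -0.32 (standard error 0.151, adjusted p = 0.0617) in the tKO mice. Cdk6 was at 0.05 (standard error 0.137) in the controls and passed in none of the comparisons between populations or lines.

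Of the 4 inhibitors, 3 were higher in mature mTEC in both genotypes and in both lines. Cdkn1a encodes p21, a target of p53. In immature mTEC, Cdkn1a stood at 93.0, 84.9, 81.0 and 98.1 CPM in the Rbfox1 line and at 74.6, 94.5, 125 and 119 CPM in the Rbfox2 line. In mature mTEC, Cdkn1a stood at 204, 159, 183 and 179 CPM in the Rbfox1 line and at 212, 204, 202 and 212 CPM in the Rbfox2 line. Cdkn2a and Cdkn2b lie beside each other (ENSMUSG00000044303, chr4:89274471-89294653 and ENSMUSG00000073802, chr4:89306299-89311039 of GRCm38). In immature mTEC, Cdkn2a stood at 12.5, 11.9, 14.4 and 15.4 CPM in the Rbfox1 line and at 12.5, 10.2, 14.0 and 13.9 CPM in the Rbfox2 line. In mature mTEC, Cdkn2a stood at 32.6, 34.3, 29.8 and 36.0 CPM in the Rbfox1 line and at 46.5, 41.3, 37.4 and 42.5 CPM in the Rbfox2 line. The row of Cdkn2a holds the transcripts of both p16 and p19ARF. In immature mTEC, Cdkn2b stood at 25.0, 18.9, 16.8 and 22.1 CPM in the Rbfox1 line and at 15.2, 21.1, 26.6 and 28.4 CPM in the Rbfox2 line. In mature mTEC, Cdkn2b stood at 69.2, 66.0, 71.8 and 66.1 CPM in the Rbfox1 line and at 83.9, 74.1, 77.0 and 82.5 CPM in the Rbfox2 line. For all 3, every mature library was above every immature library, with log2 fold changes in the controls of 1.16 (standard error 0.0951, adjusted p = 3.07e-09) for Cdkn1a, 1.69 (standard error 0.147, adjusted p = 7.08e-09) for Cdkn2a and 1.88 (standard error 0.125, adjusted p = 1.6e-10) for Cdkn2b, which encodes p15. In immature mTEC, Cdkn1b stood at 85.7, 80.8, 82.4 and 89.4 CPM in the Rbfox1 line and at 65.9, 68.6, 84.0 and 61.7 CPM in the Rbfox2 line. In mature mTEC, Cdkn1b stood at 73.6, 73.2, 68.7 and 78.6 CPM in the Rbfox1 line and at 70.5, 74.9, 68.3 and 69.8 CPM in the Rbfox2 line. Cdkn1b, which encodes p27, was at -0.04 (standard error 0.0832, adjusted p = 0.719) in the controls and -0.14 (standard error 0.1000, adjusted p = 0.231) in the tKO mice, and passed as lower in the Rbfox1 line alone (-0.21, standard error 0.0845, adjusted p = 0.0323, against 0.02, standard error 0.1000 in the Rbfox2 line).

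Between tKO and control mice no member passed in either population of either line. In mature mTEC 0 of 49 passed in the Rbfox1 and 0 in the Rbfox2 comparison, where 0.0222% and 0.0277% of genes were higher and 0% and 0.0277% lower, and 3 and 7 had an unadjusted p under 0.05, where 3.35% and 5.34% of all genes had. In immature mTEC 0 passed in both, where 0.0383% and 0.0613% of genes were higher and 0% and 0.0306% lower, and 23 and 3 had an unadjusted p under 0.05, where 5.9% and 6.25% of all genes had. DESeq2 gave 0 in all 4. In the average effect over both lines 0 members passed, where 0.0333% of genes were higher and 0.0166% lower in mature and 0.0919% and 0.0153% in immature mTEC. At an unadjusted p under 0.05 there were 1 and 12 members, where 4.63% and 7.48% of all genes were. In the difference of the tKO effects between lines 0 members passed, where 0% of genes were higher and 0.00555% lower in mature and 0% and 0.00766% in immature mTEC, and 10 and 9 members had an unadjusted p under 0.05, where 4.66% and 4.43% of all genes had. DESeq2 gave 0 in each.

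In immature Rbfox1 tKO mTEC, 43 of 49 members had a negative log2 fold change, with a median of -0.35 (0.00201 over all genes). Nek2 (-0.86, 95% interval -1.25 to -0.47, adjusted p = 0.241) and Fancd2 (-1.51, interval -2.20 to -0.83, adjusted p = 0.241, edgeR) were nearest to the threshold. They passed as lower in edgeR with all 16 libraries in 1 fit (adjusted p = 0.0454 and 0.0247), and with Top2a when low counts were not filtered (0.0219, 0.0119 and 0.0447). The 2 control libraries of that comparison include the one that stood apart. In mature Rbfox2 tKO mTEC 35 of 49 members had a positive value, with a median of 0.09, the largest being Cenpe (0.43, interval 0.11 to 0.76). In mature Rbfox1 tKO mTEC 42 of 49 were negative, with a median of -0.15, and in immature mTEC of the Rbfox2 tKO mice 22 were positive and 27 negative. In the latter, Cdkn1a was at 0.55 (interval 0.24 to 0.87, adjusted p = 0.391, edgeR's quasi-likelihood test) and Ccne1 at 1.21 (interval 0.29 to 2.12, adjusted p = 0.674). For Mki67 the intervals were -0.37 to 0.07 and -0.54 to 0.13 in the Rbfox1, and -0.06 to 0.41 and -0.44 to 0.42 in the Rbfox2 comparisons of mature and immature mTEC, so a 2-fold change lay outside all 4.

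**Figure D5:**
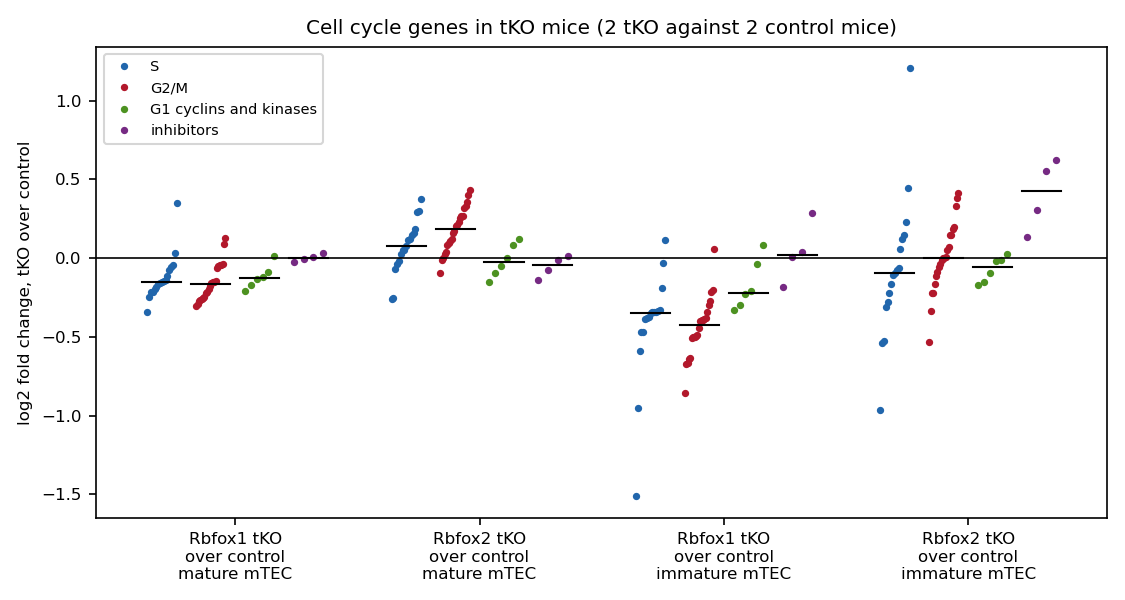
Log2 fold change of tKO over control mice (vertical axis, 2 against 2 mice) for each tested member, by class, in the 4 comparisons; each point is a gene and each short line the median of its class. No point passed the test, and in immature mTEC of the Rbfox1 line 43 of 49 points lie below 0.

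Other genes of the same pathway were read from lists that hold no member. Of 32 further S genes, 12 were lower and 1 higher in mature mTEC of the controls, where 30.4% and 38.4% of all genes were. The 3 with the largest values were Cdca7 (-1.66, standard error 0.185), a target of MYC and E2F that acts on chromatin, Ung (-0.87, standard error 0.189), the uracil glycosylase, and Pold3 (-0.83, standard error 0.126), a subunit of polymerase delta. Of 38 further G2/M genes, 17 were higher and 7 lower, beside the same 38.4% and 30.4%. Those with the largest values were G2e3 (-1.77, standard error 0.233), a ubiquitin ligase, Cdc25c (1.62, standard error 0.195), the phosphatase that activates Cdk1, and Gas2l3 (1.32, standard error 0.262), a cytoskeletal linker. Of 29 other regulators tested, 11 were higher and 8 lower. The regulators with the largest values were the E2F family genes E2f2 (1.43, standard error 0.152) and E2f7 (1.10, standard error 0.165) and the E2F partner Tfdp1 (1.25, standard error 0.0692). In immature mTEC of the Rbfox2 line, 19 of 32 S, 30 of 38 G2/M and 11 of 29 regulator genes were lower than in the Rbfox1 line, where 12.3% of all genes were, and 0, 0 and 2 were higher, where 11.1% were (at an unadjusted p under 0.05, 22 of the S and 35 of the G2/M genes passed, where 35.5% of all genes did).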

How the data were processed

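Counts of reads per gene were deposited by the authors in 1 table for 16 libraries, without normalization. The build mm10 and the tools featureCounts 1.6.0, HISAT2 2.1.0 and Picard 2.10.9 are named in the submitters' processing notes. Per the file headers, duplicates had been removed and libraries brought to a fixed number of reads, larger for mature mTEC, so depth and population went together. The quasi-likelihood test of edgeR 4.0.16 (R 4.3.3) was run on a mean per condition after TMM scaling and removal of low genes by filterByExpr (count minimum 10), and p-values were adjusted over all genes tested. CPM are TMM-normalized. Alternatives were DESeq2 1.42.0, DESeq2 size factors, library totals, no or a stricter filter, a fold threshold, a replicate block, sex as a covariate, all libraries in 1 fit and each library left out.

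The members, classes and lists were chosen with earlier results of these data known. Named were all 50 members, with values per library for up to 10 per class that passed in any comparison and had the smallest adjusted p, the targeted genes, and the 3 largest values of each further list. Within a line and genotype, 1 number marks 1 mouse in both populations, and the deviations of its libraries from the condition means correlated by 0.169 to 0.293. The study's methods name sex-matched littermate controls, and within a line tKO and control mice of 1 number are of the same sex, so these were taken as pairs, although no label names a litter. Deviations of their libraries correlated by 0.0824 to 0.293. With 1 male and 1 female per condition, neither set of correlations can tell mouse or litter apart from sex. The reported fits have no block, and the fits with it are given at the end.

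The test was checked on simulated counts. It recovered 76.5% of 2-fold and 97.9% of 4-fold changes for the control comparison of the populations (15830 genes), 79.4% and 100% for the lines in immature mTEC (12754 genes), and 62.9% and 92.9% for Rbfox2 tKO immature mTEC (12770 genes). Gene positions are from GENCODE M21 and figures were drawn with matplotlib 3.10.9 in Python 3.11.15.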

Additional observations from a re-analysis of the deposited data

Results flagged for a closer look

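In 36 members the change from immature to mature mTEC differed between the Rbfox1 and Rbfox2 lines at an adjusted p under 0.05 (edgeR's quasi-likelihood test of the difference itself, 16 libraries). All 36 differences, given here as the log2 fold change in the Rbfox2 line minus that in the Rbfox1 line, were positive. Among the S genes they were 0.72 for Mcm2, 0.67 for Mcm3, 0.63 for Mcm4, 0.78 for Mcm5, 0.74 for Mcm6, 0.78 for Mcm7, 0.45 for Pcna, 0.94 for Tyms, 0.60 for Rrm1, 0.91 for Rrm2, 1.10 for Brca1 and 1.23 for E2f1. Among the G2/M genes of entry into mitosis they were 1.02 for Mki67, 0.67 for Top2a, 1.39 for Ccna2, 1.05 for Ccnb1, 1.01 for Cdk1, 1.03 for Aurka, 1.38 for Aurkb, 1.21 for Plk1, 1.37 for Nek2 and 0.81 for Foxm1. Among those of the spindle, kinetochore and exit they were 0.96 for Cdc20, 1.16 for Bub1, 1.16 for Bub1b, 1.56 for Cenpe, 0.93 for Cenpf, 1.07 for Kif11, 1.04 for Kif20a, 0.88 for Kif23, 1.16 for Tpx2, 1.27 for Nusap1, 0.81 for Prc1 and 1.59 for Birc5. Among the G1 genes they were 0.67 for Ccnd2 and 0.39 for Cdk4. The lines hold different mice, and what sets them apart was not tested.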

How the results depend on the processing

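No member that passed changed direction under the alternatives run. The log2 ratios of the class sums in control mice over both lines kept their direction as well. Within the control mice of the Rbfox1 line, the log2 ratio of the G2/M sums went from -0.04 to 0.05 with DESeq2 size factors. Requiring a change over 2-fold as well left 6 members higher and 1 lower between the populations in control mice, 7 and 1 in tKO mice, 4 and 9 in the Rbfox1 line and 22 and 1 in the Rbfox2 line, 18 in the difference between lines, 0 and 0 between lines in mature mTEC, and 0 higher and 20 lower in immature mTEC, or 8 in tKO mice alone. Between lines in mature mTEC, 2 were higher with library totals, 2 with DESeq2 and 3 with all 16 libraries in 1 fit. In immature mTEC 0 were higher with library totals and with DESeq2, and DESeq2 gave 22 lower in control mice and 7 in tKO mice. In immature Rbfox1 tKO mTEC 3 were lower with no filter and 2 with all 16 libraries in 1 fit. The cause of these shifts was not tested.

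With each library left out in turn, 19 to 27 members were higher and 12 to 14 lower between the populations in controls, 26 to 28 and 10 to 13 in tKO mice, 7 to 15 and 16 to 20 in the Rbfox1 line, 28 to 31 and 9 to 10 in the Rbfox2 line, and 29 to 38 were higher in the difference between lines. Between lines, 0 to 1 were higher and 32 to 40 lower in immature mTEC, 19 to 36 lower in controls and 3 to 16 in tKO mice alone, and 1 to 8 higher and 2 to 4 lower in mature mTEC. Where 1 library was left in a condition, it was taken to vary like the others.

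With the replicate block, 25 and 14 were higher and lower in controls, 28 and 12 in tKO mice, 15 and 20 in the Rbfox1 line and 37 higher in the difference between lines, and no count of members moved by over 1.5 times. With the pairs of tKO and control mice as the block, 0 members passed in each comparison of tKO with control within a population, as without it, which says nothing of how stable those values are. Library totals moved the share of higher genes among all that passed between lines from 47.6% to 30.3% in immature and from 49.9% to 30.7% in mature mTEC. Immature libraries held fewer counts, which limits low genes such as Cdc6, and 2 mice per condition limit the tKO comparisons.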
